A study of Mus musculus with 2 samples.

Results

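The nuclei described here are 1434 GABA nuclei with a high count of Adarb2, a gene for an RNA-editing enzyme homologue that marks interneurons of the caudal ganglionic eminence (CGE) in mouse forebrain. They are 552 nuclei of the KO library and 882 of the WT library, out of 8133 and 10791 nuclei with at least 500 genes and at most 5% mitochondrially encoded UMIs, 18924 in all. A nucleus was taken when it had at least 1 UMI (unique molecular identifier, a counted transcript tag) of Gad1 and Gad2 together and at least 8 of Adarb2. It also had to have at most 4 of Nxph1, at most 1 of Drd2 and none of Slc17a6 or Slc17a7. The nuclei were thus chosen on these genes, whose levels below describe the choice and support nothing. The label that led to the choice, CGE-type neurons, fitted only part of them: most carried Foxp2 and Meis2 with markers of projection neurons, so the population is called Adarb2-high GABA nuclei.

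The study profiled single nuclei of the amygdala by droplet RNA sequencing with the 5' gene expression kit of 10x Genomics, and compared Sema6d-/- mice (KO) with wild-type mice (WT). Both groups were C57BL6/J mice aged 6 to 8 weeks, and each was 1 library. The protein of Sema6d is a membrane-bound semaphorin, which signals in axon guidance through plexin receptors. In the sources used here, nothing is given on the number of animals per library, their sex or the deleted part of Sema6d.

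Because each genotype is a single library, differences are described and not tested, and nuclei were not used as replicates. A level is the share of a population's UMIs in counts per 1000000 (CPM). A ratio is the log2 of the KO level divided by the WT level, and every interval is an exact 95% interval that covers counting error only. The KO library held 8666 barcodes with 60402979 UMIs and the WT library 11060 barcodes with 85124128 UMIs, and 128 barcode sequences occurred in both libraries, 1 of them among the Adarb2-high nuclei. The Adarb2-high nuclei held 5035490 UMIs in KO and 7703038 UMIs in WT, with medians of 7850 and 7811 UMIs per nucleus. Their median mitochondrially encoded share was 0.307% in KO and 0.648% in WT. That difference runs with genotype through all results below, and its part in them was not tested.

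Interneurons of the CGE are local inhibitory cells that release GABA. They are grouped by peptide and marker genes such as Vip, Cck and Lamp5, and many carry Prox1, Npas1 and the ionotropic serotonin receptor gene Htr3a. Many Vip cells inhibit other interneurons, and the large Cck cells carry the cannabinoid receptor Cnr1 on their terminals, in the cortex and in the basolateral amygdala. The transcription factors Foxp2 and Meis2 instead mark several kinds of GABA projection neurons in the striatum and amygdala, among them intercalated cells.

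Adarb2-high nuclei made up 14.5% of 3809 GABA nuclei in KO (13.4 to 15.7) and 14.7% of 6014 in WT (13.8 to 15.6), intervals that overlap. Of all kept nuclei they were 6.79% in KO (6.25 to 7.36) and 8.17% in WT (7.66 to 8.71), intervals that do not overlap. The median Adarb2 count was 18 UMIs in KO nuclei and 19 in WT nuclei, with highest counts of 506 and 1210. Most nuclei therefore lay near the low end of a long range.

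Foxp2 and Meis2, which the rule did not use, divided the population. Nuclei with at least 3 UMIs of either gene, a limit set after the values were seen, numbered 323 in KO (58.5%, 54.3 to 62.7) and 580 in WT (65.8%, 62.5 to 68.9). These are called Foxp2/Meis2 nuclei, and the other 229 in KO and 302 in WT are called Foxp2/Meis2-low. Both genes reached that count together in 280 KO and 500 WT nuclei, Meis2 without Foxp2 in 33 and 75, and Foxp2 without Meis2 in 10 and 5. No UMI of either gene was found in 193 KO and 213 WT nuclei. A highest count of 1 to 5, near the limit, was found in 46 KO and 114 WT nuclei. In oligodendrocyte nuclei, which should lack both genes, the same limit was reached by 23 of 729 in KO (3.16%, 2.01 to 4.70) and 21 of 355 in WT (5.92%, 3.70 to 8.90), at medians of 1985 and 2201 UMIs against 7850 and 7811 in Adarb2-high nuclei. A Meis2 UMI was found in 15.6% of these oligodendrocyte nuclei in KO and 33.0% in WT. This background was higher in WT, as the Foxp2/Meis2 share was, and its part in that difference was not tested. After thinning every nucleus to 2000 UMIs, a Meis2 UMI was found in 55.8% of Adarb2-high nuclei in KO and 65.1% in WT, against 12.7% and 24.7% of oligodendrocyte nuclei, and a Foxp2 UMI in 49.5% and 55.3%, against 3.95% and 8.37%. The difference in mix between the libraries bears on each ratio below, so ratios are also given within each kind of nucleus where they differ.

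The Adarb2 count itself ran with this division. Its median was 14 UMIs in KO and 13.5 in WT among Foxp2/Meis2 nuclei, and 43 and 54.5 among Foxp2/Meis2-low nuclei. Just inside the limit, at 8 or 9 UMIs of Adarb2, 82.0% of 89 KO and 91.2% of 137 WT nuclei were Foxp2/Meis2 nuclei. Just outside, at 6 or 7 UMIs, the share was 86.4% of 118 KO and 93.1% of 232 WT nuclei. At 50 or more UMIs it was 10.9% of 119 KO and 17.2% of 192 WT nuclei. The nuclei with few Adarb2 UMIs were thus mostly of the Foxp2/Meis2 kind on both sides of the limit, in both libraries.

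**Figure D1:**
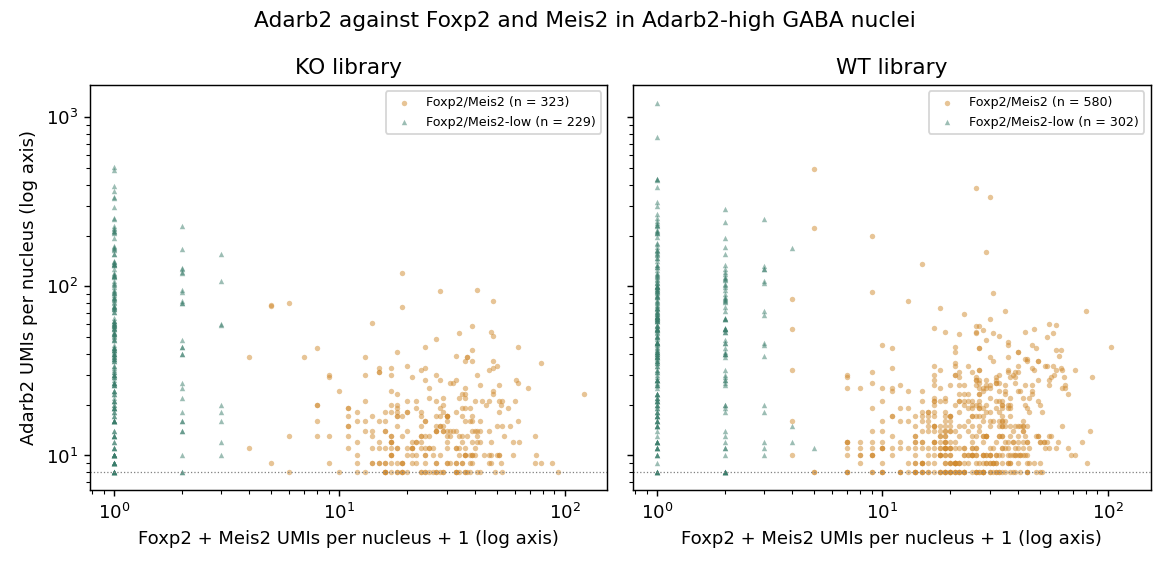
Adarb2 UMIs per nucleus (log axis) against the sum of Foxp2 and Meis2 UMIs plus 1 (log axis) for every Adarb2-high GABA nucleus, KO library left and WT library right, with the dotted line at the limit of 8 Adarb2 UMIs. The Foxp2/Meis2 nuclei (323 in KO, 580 in WT) lie mostly at low Adarb2 counts, and the Foxp2/Meis2-low nuclei (229 and 302) reach the highest ones.

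The Foxp2/Meis2 nuclei carried genes of striatal and central amygdala projection neurons. Drd1, the D1 dopamine receptor, stood at 164 CPM in KO (149 to 180) and 101 CPM in WT (92.0 to 110) in them, against 8.12 and 8.29 CPM in Foxp2/Meis2-low nuclei. Rgs9, a striatal regulator of G protein signalling, stood at 496 and 480 CPM against 44.0 and 40.1 CPM. Pde10a, the striatal phosphodiesterase, stood at 2258 and 2366 CPM against 794 and 828 CPM. Ppp1r1b, which encodes DARPP-32, stood at 118 and 129 CPM against 31.6 and 33.8 CPM. All 4 genes were higher in the Foxp2/Meis2 nuclei of both libraries.

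The genes farthest apart between both kinds of nuclei were named by the smaller of the 2 libraries' ratios. Higher in Foxp2/Meis2 nuclei, beside the genes that define them, stood Sh3rf2, Ano2, Otof, Prkch, Mhrt, Rarb, Slc24a4, Inf2, Impg1 and Col6a1. Otof, the gene of the calcium sensor otoferlin, had 324 UMIs in KO and 600 in WT (120 and 128 CPM), against 11 and 9 UMIs (4.70 and 2.98 CPM) in Foxp2/Meis2-low nuclei. Rarb, a retinoic acid receptor, had 788 CPM in KO and 684 CPM in WT, against 35.04 and 35.81 CPM. Ano2, a calcium-activated chloride channel, had 26.3 CPM in KO and 48.0 CPM in WT, against 0.855 and 1.66 CPM. Tshz1, a transcription factor of intercalated cells, had 202 CPM in KO and 234 CPM in WT, against 23.1 and 36.5 CPM. Pbx3, a homeobox gene, had 925 and 912 CPM against 94.4 and 133 CPM. Over 10716 genes with at least 60 UMIs in both kinds and libraries together, 479 (4.47%) were more than 2-fold higher in Foxp2/Meis2 nuclei in both libraries and 467 (4.36%) more than 2-fold lower, which describes a split made on these same nuclei.

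Several CGE genes were higher in the Foxp2/Meis2-low nuclei. Vip, the vasoactive intestinal peptide gene, stood there at 137 CPM in KO (122 to 153) and 81.9 CPM in WT (72.0 to 92.8), against 0.742 CPM (2 UMIs) and 13.7 CPM (64 UMIs) in Foxp2/Meis2 nuclei. Npas1, a transcription factor of CGE interneurons, stood at 71.4 and 68.0 CPM, against 0 UMIs in KO, where 3 UMIs would be 1.11 CPM, and 5.97 CPM in WT. Prox1, a homeobox gene that CGE interneurons retain, stood at 46.6 and 34.8 CPM against 10.8 and 6.83 CPM. Htr3a stood at 14.1 and 16.9 CPM against 1.86 and 2.56 CPM, and Cnr1 at 476 and 499 CPM against 186 and 229 CPM. Reln, which encodes the secreted protein reelin, stood at 319 and 371 CPM against 87.2 and 118 CPM. Lamp5, a membrane protein gene of one CGE class, went the other way, at 12.8 and 13.3 CPM against 49.3 and 45.4 CPM in Foxp2/Meis2 nuclei.

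The Foxp2/Meis2-low nuclei were themselves mixed. Genes of basal forebrain neurons and genes of the medial ganglionic eminence (MGE), the source of Sst and Pvalb interneurons, were present beside the CGE genes. Lhx8, a homeobox gene of basal forebrain cholinergic and related neurons, stood at 69.7 CPM in KO and 71.6 CPM in WT, and Gbx1, another homeobox gene, at 28.2 and 39.1 CPM. Chat, the acetylcholine-synthesising enzyme, stood at 21.4 and 25.2 CPM. In GABA nuclei with at least 8 UMIs of Nxph1 and at most 4 of Adarb2, called MGE-type here (238 in KO, 288 in WT), Lhx8 stood at 13.93 and 18.03 CPM. Sox6, a transcription factor of MGE interneurons, stood at 565 CPM in KO and 498 CPM in WT in the Foxp2/Meis2-low nuclei, against 1443 and 1121 CPM in MGE-type nuclei. For Lhx6, which specifies MGE interneurons, the values were 34.2 and 43.8 CPM against 89.8 and 84.9 CPM, and for Sst 36.8 and 37.5 CPM against 538 and 346 CPM. Over the 23 CGE marker genes without Adarb2, the summed level was 3361 CPM in KO and 3618 CPM in WT Foxp2/Meis2-low nuclei, against 1141 and 1308 CPM in Foxp2/Meis2 nuclei. It was 1487 and 1571 CPM in oligodendrocyte nuclei, so the level in Foxp2/Meis2 nuclei was below that of nuclei of another class. Npas3, a transcription factor gene that glia express too, made up 1597 CPM in KO and 1906 CPM in WT of the sum in Foxp2/Meis2-low nuclei. Over the other 22 genes the sum was 1764 and 1712 CPM in Foxp2/Meis2-low nuclei, 919 and 1071 CPM in Foxp2/Meis2 nuclei, and 669.7 and 874 CPM in oligodendrocyte nuclei.

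**Figure D2:**
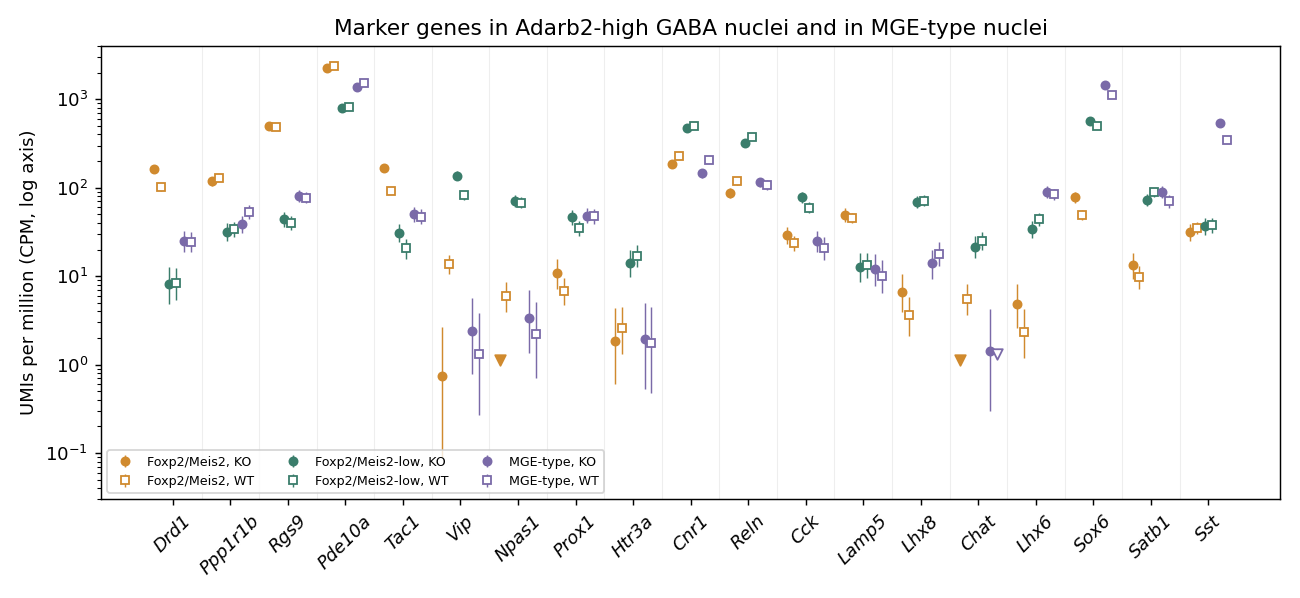
Level of 19 marker genes in CPM (log axis) in Foxp2/Meis2 nuclei, Foxp2/Meis2-low nuclei and MGE-type nuclei, with KO as filled circles and WT as open squares. Lines are 95% counting intervals, and a triangle marks a gene with 0 UMIs at the limit that 3 UMIs would give. Drd1, Rgs9 and Tac1 are highest in Foxp2/Meis2 nuclei, Vip, Npas1, Lhx8 and Chat in Foxp2/Meis2-low nuclei, and Lhx6, Sox6 and Sst in MGE-type nuclei.

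Against the MGE-type nuclei, the genes highest in the Adarb2-high population by the smaller library ratio were Vip, Frem1, Rxfp2, Foxp2, Npas1, Gbx1, Chst9, Npffr2, Mhrt and Chat. Frem1, an extracellular matrix gene, had 33.2 CPM in KO and 40.2 CPM in WT, against 1.441 and 2.198 CPM in MGE-type nuclei. Rxfp2, a receptor of the relaxin family, had 23.8 and 19.9 CPM against 0.480 and 1.32 CPM. Lowest were Gna14, Moxd1, Crhbp, Igfbp4, Hhip and Hs3st2. Crhbp, the binding protein of corticotropin-releasing hormone and a gene of Sst interneurons, had 0.199 CPM in KO and 1.56 CPM in WT, against 65.8 and 55.4 CPM. Of 11260 genes at the same minimum, 261 (2.32%) were more than 2-fold higher in both libraries and 229 (2.03%) more than 2-fold lower. These are descriptions of populations chosen by their counts.

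Against all other GABA nuclei, the highest genes were Vip, Vmn1r209, Frem1, Htr3a, Npas1, Rxfp2, Gbx1, Scube2, Pde5a and Cyyr1. Vip had 63.9 CPM in KO and 40.4 CPM in WT, against 3.26 and 1.79 CPM in the others. Lowest were Aox1, Clspn, Fmo1, Adora2a, Flt1 and Gna15. Adora2a, an adenosine receptor of striatal D2 neurons, had 10.9 and 12.9 CPM against 98.1 and 93.6 CPM, in nuclei chosen for at most 1 UMI of Drd2. Of 13268 genes, 197 (1.48%) were more than 2-fold higher in both libraries and 412 (3.11%) more than 2-fold lower. Of the GABA nuclei with at least 2 Vip UMIs, the rule took 22 of 30 in KO and 26 of 28 in WT. Of those with at least 2 Lhx8 UMIs it took 47 of 93 in KO and 61 of 138 in WT, for Cck 33 of 115 and 38 of 111, and for Lamp5 33 of 327 and 43 of 388. Most GABA nuclei with at least 2 Vip UMIs thus fell inside the population, and most of those with 2 Cck or Lamp5 UMIs outside it. At least 2 Cck UMIs were also found in 1.78% of oligodendrocyte nuclei in KO and 0.563% in WT. Such a count alone therefore does not show that a nucleus is of a Cck neuron.

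Subsets were taken at 2 or more UMIs of a gene. The Vip subset held 22 nuclei in KO (3.99%, 2.51 to 5.97) and 26 in WT (2.95%, 1.93 to 4.29), and the Cck subset 33 in KO (5.98%, 4.15 to 8.29) and 38 in WT (4.31%, 3.07 to 5.87). The Lamp5 subset held 33 in KO (5.98%, 4.15 to 8.29) and 43 in WT (4.88%, 3.55 to 6.51), and the Lhx8 subset 47 in KO (8.51%, 6.32 to 11.2) and 61 in WT (6.92%, 5.33 to 8.80). All 4 shares were higher in KO at this limit, and each pair of intervals overlapped. At 1 UMI the order turned for Lamp5 (20.1% in KO, 21.5% in WT) and Lhx8 (13.6% and 13.9%), and at 3 UMIs for Cck (2.36% and 2.49%), so no direction is read from these shares. Most nuclei, 429 in KO and 724 in WT, fell in no subset. Vip and Cck shared 7 nuclei in KO and 9 in WT, and Vip shared none with Lamp5 or Lhx8 in either library, which by the exact interval allows up to 0.666% of KO and 0.417% of WT nuclei.

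Transcripts free in the droplets can give such UMIs, so the same shares were taken in oligodendrocyte nuclei (729 in KO, 355 in WT), which should lack these genes. At 2 or more UMIs they were 0% and 0% for Vip, 1.78% and 0.563% for Cck, 0.137% and 0.563% for Lamp5, and 0% and 0% for Lhx8. Oligodendrocyte nuclei were shallower, with medians of 1985 UMIs in KO and 2201 in WT. After thinning every nucleus to 2000 UMIs, 9.45% of Adarb2-high nuclei in KO and 6.25% in WT had a Cck UMI, against 13.3% and 8.84% of oligodendrocyte nuclei. Single Cck UMIs are therefore at background. For Lhx8 the thinned shares were 4.18% and 3.07% against 0% and 0%, for Vip 3.64% and 2.84% against 0.847% and 0.465%, and for Lamp5 7.27% and 8.98% against 4.52% and 3.72%.

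The Vip subset held 314 Vip UMIs in its 22 KO nuclei and 297 in its 26 WT nuclei. These were 314 of the 322 Vip UMIs of all KO Adarb2-high nuclei and 297 of 311 in WT, with up to 37 and 44 UMIs in a nucleus. Its median Adarb2 count was 84 UMIs in KO and 126 in WT. Leading genes were Egfr, Prox1, Igf1, Wnt5b, Fbln2 and Prox1os. Egfr, the epidermal growth factor receptor, had 656 CPM in KO and 577 CPM in WT inside the subset, against 6.96 and 6.97 CPM in the other Adarb2-high nuclei. Igf1, the insulin-like growth factor, had 622 and 421 CPM against 19.2 and 18.2 CPM. None of the 22 KO nuclei and 3 of the 26 WT nuclei were Foxp2/Meis2 nuclei, and the 3 had 4, 42 and 7 Vip UMIs with 222, 381 and 75 of Adarb2. Those 3 nuclei hold most of the 64 Vip UMIs of WT Foxp2/Meis2 nuclei.

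The Cck subset had a median Adarb2 count of 89 UMIs in KO and 176.5 in WT, and 24.2% and 23.7% of it were Foxp2/Meis2 nuclei. Its leading genes were Frem1, Yjefn3, Dlx1as, Pde5a, Htr3a and Col19a1. Frem1 had 411 CPM in KO and 521 CPM in WT inside the subset, against 7.01 and 13.0 CPM outside it. Htr3a had 58.3 and 82.4 CPM against 4.03 and 3.98 CPM, and Dlx1as, transcribed opposite Dlx1, had 374 and 412 CPM against 22.3 and 19.1 CPM. Whether counting used strand is not given, so reads of Dlx1as and Dlx1 may not be told apart. Cnr1 stood at 1774 CPM in KO and 2195 CPM in WT in the Cck subset, against 321 and 335 CPM in all Adarb2-high nuclei.

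The Lamp5 subset differed from both. Its median Adarb2 count was 12 UMIs in KO and 12 in WT, and 87.9% and 93.0% of it were Foxp2/Meis2 nuclei. It had 0 UMIs of Npas1 and of Kit in WT, and 0 of Npas1 and 1 of Kit in KO. Foxp2 stood there at 1330 CPM in KO and 1531 CPM in WT, and Drd1 at 144 and 105 CPM. Ndnf, a marker of neurogliaform cells among Lamp5 interneurons, had 3 UMIs in KO and 1 in WT. Leading genes by ratio were Fut10, Atp6v1c2, Timm29, Crb1, Pmepa1 and BC049352, of which only Pmepa1 had more than 15 UMIs in each library (144 and 108 CPM, against 51.3 and 39.9 CPM outside it), and Crb1 had 6 UMIs in KO and 0 in WT. At this depth the subset had no leading gene as clear as those of the others.

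The Lhx8 subset had a median Adarb2 count of 60 UMIs in KO and 68 in WT, and 10.6% and 9.84% of it were Foxp2/Meis2 nuclei. Its leading genes were Chat, Sfta3-ps, Slc5a7, Slc10a4, Nkx2-1 and Prima1. They include genes of cholinergic cells, such as Chat, the choline transporter Slc5a7 and Prima1, the membrane anchor of acetylcholinesterase. Chat had 45 UMIs in KO and 61 in WT (65.3 and 74.9 CPM, against 1.15 and 5.95 CPM outside the subset), in 7 of 47 KO and 10 of 61 WT nuclei. Nkx2-1, which specifies neurons of the MGE and preoptic area, was found in 17 KO and 19 WT nuclei, at 36.3 and 33.2 CPM. Sox6 stood at 682 and 631 CPM, Lhx6 at 37.7 and 50.4 CPM and Gbx1 at 39.2 and 56.5 CPM. Of the CGE markers, Vip had 1 UMI in each library and Prox1 and Htr3a none, while Npas1 had 31 UMIs in 11 KO nuclei and 27 in 11 WT nuclei (44.98 and 33.17 CPM). Cnr1 had 102 and 101 UMIs in the subset, and Reln 54 and 81. Nuclei of the subset were deep, with medians of 14682 UMIs in KO and 12241 in WT, against 7516 and 7450 in the other Adarb2-high nuclei, so the share with 2 Lhx8 UMIs runs with depth. Most Lhx8 nuclei had no Chat UMI.

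**Figure D3:**
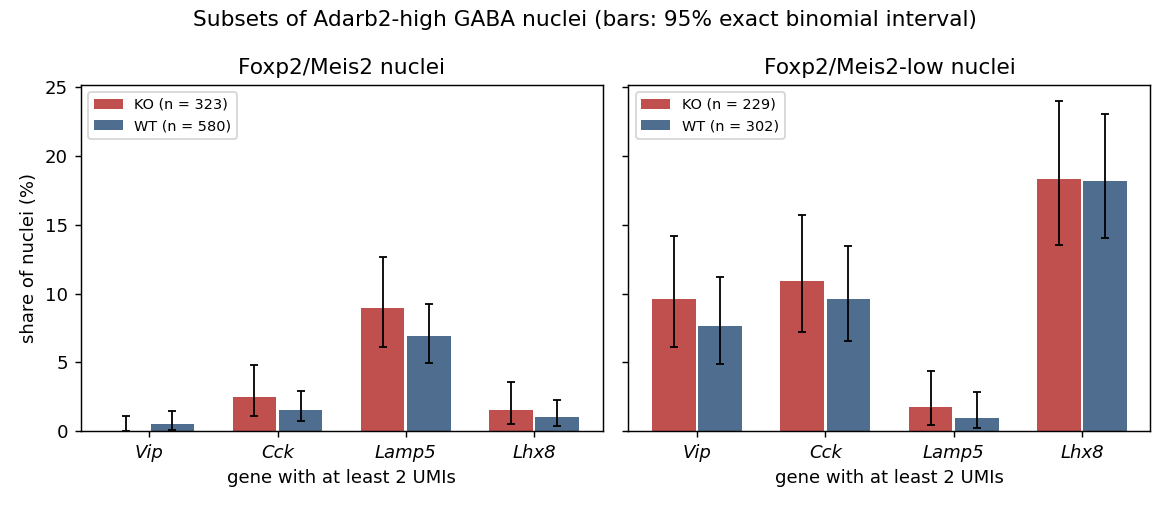
Share of nuclei with at least 2 UMIs of Vip, Cck, Lamp5 or Lhx8 among Foxp2/Meis2 nuclei (left) and Foxp2/Meis2-low nuclei (right), KO in red left of WT in blue, with 95% exact binomial intervals. Lhx8 is found in 18.3% of KO and 18.2% of WT Foxp2/Meis2-low nuclei, and Lamp5 in 8.98% and 6.90% of Foxp2/Meis2 nuclei.

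Within Foxp2/Meis2-low nuclei the Vip share was 9.61% in KO (6.12 to 14.2) and 7.62% in WT (4.89 to 11.2), the Cck share 10.9% (7.19 to 15.7) and 9.60% (6.53 to 13.5), and the Lhx8 share 18.3% (13.5 to 24.0) and 18.2% (14.0 to 23.0). Foxp2/Meis2-low nuclei themselves were 6.01% of GABA nuclei in KO (5.28 to 6.81) and 5.02% in WT (4.48 to 5.60), and Foxp2/Meis2 nuclei 8.48% (7.61 to 9.41) and 9.64% (8.91 to 10.4). Each of these pairs of intervals overlapped. Of all kept nuclei, Foxp2/Meis2 nuclei were 3.97% in KO (3.56 to 4.42) and 5.37% in WT (4.96 to 5.82), intervals that do not overlap, and Foxp2/Meis2-low nuclei 2.82% (2.47 to 3.20) and 2.80% (2.50 to 3.13).

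Sema6d, the targeted gene, was not absent from the KO library. Adarb2-high nuclei held 4630 Sema6d UMIs in KO and 7590 in WT (919 and 985 CPM), a log2 ratio of -0.10 (-0.15 to -0.05). In the other GABA nuclei the level was 655 CPM in KO and 594 CPM in WT, a log2 ratio of 0.14 (0.11 to 0.17). After thinning, 63.5% of Adarb2-high nuclei in KO and 67.0% in WT had a Sema6d UMI. Among the subsets the level was 288 CPM in KO and 703 CPM in WT for Vip (43 and 167 UMIs), 921 and 816 CPM for Cck, 662 and 1009 CPM for Lamp5, and 1128 and 1063 CPM for Lhx8. With the deleted part not given, and with tags counted from the 5' end, these counts do not check the genotype label.

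Between the libraries, 57 of 11652 genes with at least 60 UMIs (0.489%) were more than 2-fold higher in KO Adarb2-high nuclei and 49 (0.421%) more than 2-fold lower. Counting intervals lay wholly above 0 for 1643 genes (14.1%) and wholly below 0 for 1510 (13.0%). The log2 ratio ran from -0.46 at the 5th percentile to 0.52 at the 95th.

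Among the 12 genes with the highest lower bound were Glp1r, Ptgds, St18, Tcf7l2, Sema3d, Prr5l, Glo1, Xlr3b, Pla2g4e, Btbd9 and Fv1. Glp1r, a peptide hormone receptor of the glucagon family, had 67 UMIs in 50 KO nuclei and 14 UMIs in 11 WT nuclei (13.3 and 1.82 CPM; log2 ratio 2.87, 2.03 to 3.82). Ptgds, a prostaglandin D synthase made mainly by meninges and oligodendrocytes, had 732 UMIs in KO and 241 in WT (145 and 31.3 CPM; 2.22, 2.004 to 2.43). Its ratio was 2.09 in Foxp2/Meis2 nuclei, 2.51 in Foxp2/Meis2-low nuclei and 2.26 in other GABA nuclei. Glo1, the methylglyoxal-clearing enzyme glyoxalase, had 41.1 CPM in KO and 12.5 CPM in WT (1.72), and Btbd9 had 483 and 265 CPM (0.87). Glp1r, Glo1 and Btbd9 lie in the same stretch of chromosome 17 of mm10, between 30215524 and 30940791, with 0.275 Mb between Glo1 and Glp1r, and all 3 were higher in KO in the other GABA nuclei too (4.16, 1.67 and 1.05).

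St18, Tcf7l2 and Prr5l rested on few nuclei. St18, a zinc finger gene of oligodendrocytes and some neurons, had 237 UMIs in KO and 88 in WT (log2 ratio 2.04), and 1 KO nucleus held 69 of them. Tcf7l2, a Wnt pathway transcription factor, had 63 UMIs in KO and 19 in WT (2.34), with 32 in 1 KO nucleus. Prr5l, a gene of the mTOR complex also used as an oligodendrocyte marker, had 106 and 43 UMIs (1.91), with up to 20 in a KO nucleus. Without the nuclei that held at least 5 UMIs of the myelin genes Mog, Mag and Mobp together (12 in KO, 9 in WT), the ratios were 1.30 for St18, 1.42 for Tcf7l2 and 1.15 for Prr5l. Sema3d, a secreted semaphorin, had 91 UMIs in 26 KO nuclei and 32 in 19 WT nuclei (18.1 and 4.15 CPM; 2.12, 1.53 to 2.75), and 1.12 without the Lhx8 subset.

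The 12 genes with the lowest upper bound were Arc, Nr4a3, Crocc, Hebp1, Npas4, Fosl2, Irs2, Miip, Btg2, Ttc8, Zfp933 and Ivd, and 5 of them, Arc, Nr4a3, Npas4, Fosl2 and Btg2, are induced by neuronal activity. Crocc, the gene of a ciliary rootlet protein, had 90 UMIs in 80 KO nuclei and 353 in 271 WT nuclei (17.9 and 45.8 CPM; -1.36, -1.71 to -1.02). Ttc8, a gene of the ciliary BBSome, had 56.8 CPM in KO and 110 CPM in WT (-0.95, -1.15 to -0.76). Irs2, an adaptor of insulin receptors, had 7.35 and 19.2 CPM (-1.39). Miip and Zfp933 lie near Fv1 on chromosome 4, between 147822986 and 147870358, where Fv1 was higher in KO (1.39) and the other two were lower (-1.25 and -1.06). Ivd (-1.001) and Pla2g4e (1.15) lie on chromosome 2, 5.21 and 3.84 Mb from Sema6d. In the other GABA nuclei all 12 genes were lower in KO as well, at ratios from -1.81 for Crocc to -0.71 for Btg2.

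**Figure D4:**
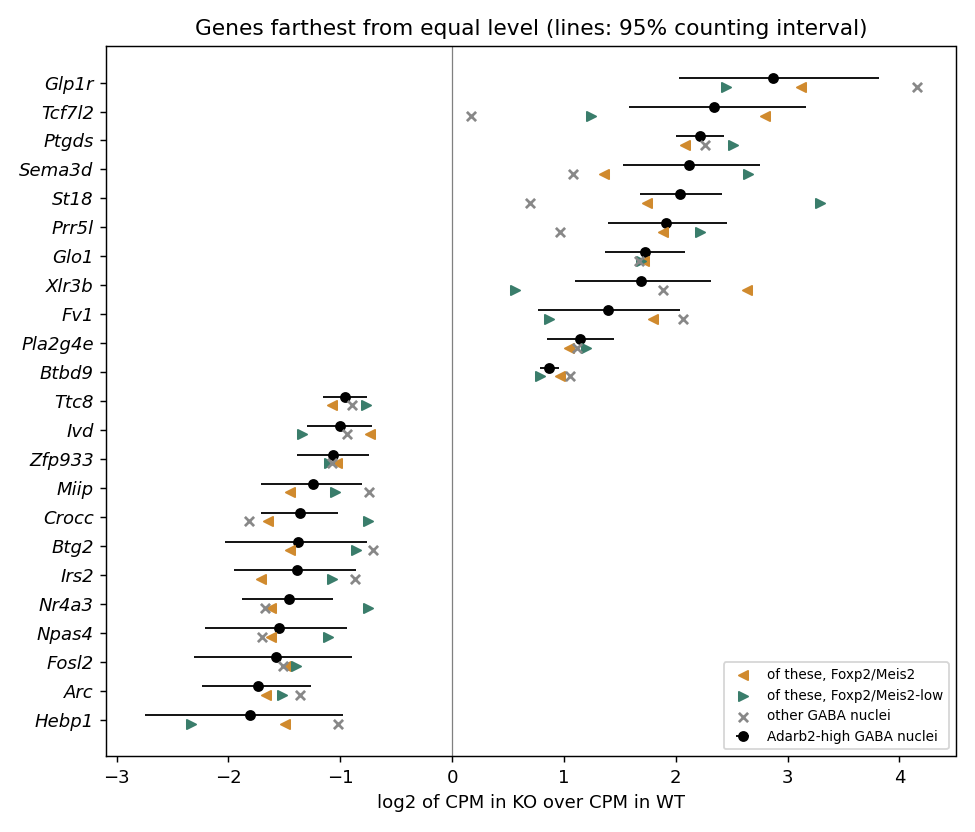
Log2 ratio of the KO to the WT level (CPM) for 11 of the 12 genes with the highest lower bound and the 12 with the lowest upper bound in Adarb2-high GABA nuclei (black, with 95% counting interval), beside the ratio in Foxp2/Meis2 nuclei, Foxp2/Meis2-low nuclei and other GABA nuclei. Signs are the same in all 4, and Tcf7l2 and St18 lie farthest from their value in other GABA nuclei (0.17 and 0.70).

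Genes induced by neuronal firing, among them early transcription factors and their targets, were lower in KO as a list. Of 26 genes listed 25 had at least 20 UMIs, 22 of them lower and 3 higher in KO, with a median log2 ratio of -0.89 against 0.02 over all 14111 genes measured at that minimum, of which 52.3% were higher and 47.7% lower. Intervals lay wholly below 0 for 17 of the 25, against 11.4% of all genes. Arc, which regulates glutamate receptors at synapses, had 44 UMIs in 32 KO nuclei and 224 in 118 WT nuclei (8.74 and 29.1 CPM; -1.73, -2.24 to -1.26). Npas4, a transcription factor that shapes inhibitory input, had 27 and 121 UMIs (5.36 and 15.7 CPM; -1.55), and Nr4a3, an orphan nuclear receptor, 65 and 274 UMIs (-1.46). Fos itself had 28 and 97 UMIs (-1.18, -1.84 to -0.56), and Egr1 112 and 318 (-0.89). Homer1 stood closer to equal, at 185 CPM in KO and 237 CPM in WT (-0.36).

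Most genes of the list were lower in each kind of nucleus, with fewer intervals below 0 in Foxp2/Meis2-low nuclei. Its median was -0.81 over 23 genes in Foxp2/Meis2 nuclei, 22 of them lower (49.5% of all genes there), and -0.53 over 19 genes in Foxp2/Meis2-low nuclei, 14 of them lower (48.7% of all genes). The interval of that last median included 0 (-0.96 to 0.14), and 4 of the 19 gene intervals lay wholly below 0, against 8.54% of all genes there. In other GABA nuclei it was -0.63, with 21 of 26 lower (39.3% of all genes). The exceptions in the Adarb2-high population were Bdnf, the neurotrophin, with 33 UMIs in KO and 24 in WT (1.07, 0.27 to 1.90), Nptx2 (0.49, -0.21 to 1.20) and Dusp1 (0.13, -0.67 to 0.91). Bdnf was named after its value was seen. The summed level of the 26 genes was 403 CPM in KO and 615 CPM in WT in Adarb2-high nuclei. It was 498 and 780 CPM in Foxp2/Meis2 nuclei and 293 and 359 CPM in Foxp2/Meis2-low nuclei. Oligodendrocyte nuclei had 480 and 448 CPM, so the level in Foxp2/Meis2-low nuclei was below that of nuclei of another class in both libraries. The part of this background in the ratios was not tested.

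Peptide and granule genes leaned the other way. Of 23 measured, 16 were higher in KO and 7 lower, against 52.3% and 47.7% of all genes. The median log2 ratio was 0.12, with an interval that included 0 (-0.02 to 0.61). Of the gene intervals 11 lay wholly above 0, against 12.9% of all genes. Those above were Scg3, Chgb, Cck, Vgf, Nts, Vip, Pnoc, Tac1, Chga, Scg2 and Tac2, with single Cck UMIs at background as given for the subsets. Scg2, a granin that is stored in dense core granules, had 954 UMIs in KO and 866 in WT (189 and 112 CPM; 0.75, 0.62 to 0.89). Chga, chromogranin A, had 144 and 88.4 CPM (0.71, 0.55 to 0.86), and Chgb 123 and 95.3 CPM (0.37, 0.22 to 0.53). Tac1, the substance P gene, had 103 and 64.3 CPM (0.68, 0.50 to 0.86), and 0.84 in Foxp2/Meis2 nuclei. Pcsk2, a convertase that cuts peptide precursors, was lower, at 434 and 487 CPM (-0.17, -0.24 to -0.09), and Penk was near equal (0.01, -0.09 to 0.11). In Foxp2/Meis2 nuclei 19 of 23 were higher and 4 lower (49.5% of all genes there), with a median of 0.22 (0.08 to 0.33). In Foxp2/Meis2-low nuclei 12 of 23 were higher, near the 51.3% of all genes there, with a median of 0.14 (-0.11 to 0.50). Gene intervals there lay wholly above 0 for 9 and below 0 for 1. In other GABA nuclei 19 of 25 were higher (60.7% of all genes), with a median of 0.41, and Scg2 stood at 0.69. The summed level of the 25 genes was 2532 CPM in KO and 2278 CPM in WT in Adarb2-high nuclei. It was 2829 and 2478 CPM in Foxp2/Meis2 nuclei and 2191 and 1968 CPM in Foxp2/Meis2-low nuclei. Oligodendrocyte nuclei had 2202 and 2080 CPM, also higher in KO. The part of this background in the peptide and granule ratios was not tested.

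Vip had a log2 ratio of 0.66 (0.43 to 0.89) in the population as a whole and 0.74 (0.50 to 0.98) in Foxp2/Meis2-low nuclei. Its 322 KO UMIs lay in 30 nuclei and its 311 WT UMIs in 40, so the level rests on few nuclei in either library. Within the Vip subset the level was 2101 CPM in KO and 1251 CPM in WT, from 22 and 26 nuclei with medians of 5145 and 7297 UMIs. With both kinds of nuclei given the same weight in both libraries the ratio was 0.45, and after thinning 0.997.

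Promoters of these lists were searched for TGACGTCA, the full cyclic AMP response element, which reads the same on both strands. In the 250 bases before the RefSeq gene start (GRCm38.p6, the same build as mm10) it was present in 1.77% of 27025 genes. Among granule and peptide genes 5 of 20 with a promoter in the table had it (Sst, Cartpt, Scg2, Chgb and Pcsk1), and among activity-induced genes 2 of 20 (Dusp1 and Btg2). The promoters of 3 are printed below because their own ratios had intervals away from 0 on opposite sides, with the element in capitals and each written 5' to 3' on the strand of its gene. Scg2 lies on the minus strand at chr1:79440027-79440276, Chgb on the plus strand at chr2:132781392-132781641, and Btg2 on the minus strand at chr1:134079156-134079405.
Scg2: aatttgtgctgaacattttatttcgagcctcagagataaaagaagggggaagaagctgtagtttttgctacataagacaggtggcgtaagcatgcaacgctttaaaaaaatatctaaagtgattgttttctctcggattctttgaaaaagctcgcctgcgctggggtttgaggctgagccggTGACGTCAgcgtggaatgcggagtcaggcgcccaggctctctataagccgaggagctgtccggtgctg
Chgb: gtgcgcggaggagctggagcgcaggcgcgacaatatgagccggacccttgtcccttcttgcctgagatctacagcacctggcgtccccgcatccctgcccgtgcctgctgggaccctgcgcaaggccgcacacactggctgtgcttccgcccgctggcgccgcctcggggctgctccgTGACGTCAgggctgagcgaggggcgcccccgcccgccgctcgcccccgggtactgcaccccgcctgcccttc
Btg2: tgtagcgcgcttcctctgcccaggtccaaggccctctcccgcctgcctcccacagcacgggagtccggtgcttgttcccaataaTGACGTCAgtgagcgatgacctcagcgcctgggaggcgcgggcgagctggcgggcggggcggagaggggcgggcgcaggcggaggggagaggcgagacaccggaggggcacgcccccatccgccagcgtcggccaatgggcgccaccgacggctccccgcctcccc
The element began 68 bases before the start of Scg2, 72 before Chgb and 166 before Btg2. Scg2 and Chgb were higher in KO (0.75 and 0.37) and Btg2, an antiproliferative gene induced early by activity, was lower (5.56 CPM in KO and 14.4 CPM in WT; -1.37, -2.03 to -0.77). The remaining 4 genes with the element had intervals that included 0, at 0.13 for Dusp1, -0.09 for Sst, 0.12 for Cartpt and -0.08 for Pcsk1. The match describes the sequence only.

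Genes of GABA synthesis and synapses had a median log2 ratio of 0.05, with 17 of 27 higher in KO, against 52.3% of all genes. Slc32a1, the vesicular GABA transporter, had 514 UMIs in KO and 533 in WT (102 and 69.2 CPM; 0.56, 0.38 to 0.74), with 0.59 in Foxp2/Meis2 nuclei, 0.48 in Foxp2/Meis2-low nuclei and 0.53 in other GABA nuclei. Gphn, the scaffold gephyrin of inhibitory synapses, had 1026 and 867 CPM (0.24, 0.19 to 0.30). Gabrg3, a GABA receptor subunit, had 1270 and 1405 CPM (-0.15, -0.19 to -0.10). Gad1 and Gad2, which the rule used, stood at 0.05 and 0.13.

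Scaffold genes of the excitatory postsynaptic density were lower in KO in 17 of 19 measured, with a median log2 ratio of -0.26, and 14 intervals lay wholly below 0, against 47.7% lower and 11.4% with intervals below 0 over all genes. Dlg4, which encodes PSD-95, had 325 UMIs in KO and 699 in WT (64.5 and 90.7 CPM; -0.49, -0.69 to -0.30). Dlgap3, which binds PSD-95 and Shank proteins, had 84.2 and 116 CPM (-0.46, -0.63 to -0.29), and Dlgap2 811 and 1008 CPM (-0.31, -0.37 to -0.26). Magi2 (0.09, 0.05 to 0.12) and Cnksr2 (0.14, 0.08 to 0.20) were higher. The median was -0.21 in Foxp2/Meis2 nuclei, -0.07 in Foxp2/Meis2-low nuclei, -0.18 in other GABA nuclei, and -0.18 with both kinds of nuclei given the same weight. In Foxp2/Meis2-low nuclei 13 of 19 were lower and 7 intervals lay wholly below 0, against 48.7% and 8.54% of all genes there. There 3 intervals lay wholly above 0, and the interval of the median included 0 (-0.24 to 0.07). The summed level of the scaffold list was 11864 CPM in KO and 11687 CPM in WT in Foxp2/Meis2-low nuclei, and 14898 and 15479 CPM in Foxp2/Meis2 nuclei.

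Voltage-gated channel genes were lower in 27 of 36 (47.7% of all genes), with a median of -0.07. The median was nearer 0 within each kind, at -0.01 in Foxp2/Meis2 nuclei and -0.04 in Foxp2/Meis2-low nuclei. Cacna1c, the main L-type calcium channel, had 825 CPM in KO and 1079 CPM in WT (-0.39, -0.44 to -0.33), and Kcnd3, an A-type potassium channel, 261 and 341 CPM (-0.39). Glutamate receptor genes were split, 10 of 24 higher with a median of -0.05. Grin1, the obligate NMDA receptor subunit, had 335 and 260 CPM (0.37, 0.27 to 0.46), and Grm4, a presynaptic metabotropic receptor, 28.2 and 44.4 CPM (-0.66, -0.95 to -0.37).

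Synaptic adhesion genes were higher in KO in 27 of 39 (52.3% of all genes), with a median of 0.07. In Foxp2/Meis2-low nuclei 21 of 39 were higher (51.3% of all genes there), with a median of 0.0051. Nxph2, a neurexin ligand, had 34 UMIs in 16 KO nuclei and 7 in 6 WT nuclei (6.75 and 0.909 CPM; 2.89, 1.70 to 4.31). Cntnap5c, a contactin-associated protein gene, had 324 and 466 CPM (-0.53, -0.61 to -0.44), and its ratio was -1.60 in Foxp2/Meis2 nuclei and -0.38 in Foxp2/Meis2-low nuclei. Cntnap2 had 4911 and 4316 CPM (0.19, 0.16 to 0.21), and Nrxn3, at 8583 and 8649 CPM, was near equal (-0.01, -0.03 to 0.01).

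CGE markers as a list were balanced, with 10 of 22 higher in KO and a median of -0.02. Beside Vip, Prox1 had 27.4 CPM in KO and 17.8 CPM in WT (0.62, 0.27 to 0.98), and Tac2, the neurokinin B gene, 23.4 and 13.6 CPM (0.78, 0.39 to 1.18). Npas1 stood at 33.2 and 30.2 CPM (0.13, -0.16 to 0.43), Lamp5 at 32.4 and 32.8 CPM (-0.02, -0.31 to 0.27) and Cnr1 at 321 and 335 CPM (-0.06, -0.15 to 0.03), all 3 with intervals across 0. Cck stood at 51.6 and 37.8 CPM (0.45, 0.20 to 0.70). Single Cck UMIs were at background, as given for the subsets, and the part of that background in this ratio was not tested. In other GABA nuclei the ratios were 0.87 for Vip, 0.83 for Prox1 and 1.58 for Tac2. There 16 of 23 CGE markers were higher (60.7% of all genes), with a median of 0.51. In the Adarb2-high population MGE markers had a median of 0.02 over 17 genes. Their median was -0.05 in Foxp2/Meis2 nuclei and -0.13 (-0.33 to 0.18) in Foxp2/Meis2-low nuclei. In the latter 11 of 16 were lower, against 48.7% of all genes there, but 3 gene intervals lay wholly above 0 and 1 below. In the whole population 4 MGE marker intervals lay wholly above 0 and 0 below. Markers of projection neurons had a median of -0.13 over 19, with 0.0098 in Foxp2/Meis2 nuclei and -0.20 in Foxp2/Meis2-low nuclei. In Foxp2/Meis2-low nuclei 14 of 19 were lower, against 48.7% of all genes there. Over the 18 of these markers outside the rule, the summed level there was 1597 CPM in KO and 1760 CPM in WT. It was 2132 and 2753 CPM in oligodendrocyte nuclei, also lower in KO. The level in Foxp2/Meis2-low nuclei was thus below that of nuclei of another class, and the part of this background was not tested. Drd1 was higher in KO in Foxp2/Meis2 nuclei (0.70; 0.51 over the whole population, 0.32 to 0.69). Basal forebrain markers had a median of -0.17 (-0.49 to 0.25), with 9 of 12 lower, against 47.7% of all genes. Of their intervals 2 lay wholly below 0 and 1 above. Slc5a7 had 51 UMIs in 10 KO nuclei and 164 in 38 WT nuclei (10.1 and 21.3 CPM; -1.07, -1.55 to -0.61). Without the Lhx8 subset that ratio was -3.83, from only 4 UMIs in KO and 90 in WT, and the list median was -0.53.

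The endocannabinoid list had a median of -0.06 over 13 genes, from which Cnrip1, an interactor of the cannabinoid receptor, stood out at 78.2 CPM in KO and 63.4 CPM in WT (0.31, 0.11 to 0.50). Receptors for serotonin, acetylcholine and peptides had -0.11 over 30 genes, 12 of them higher. Htr1f, a serotonin receptor, had 816 UMIs in KO and 1725 in WT (162 and 224 CPM; -0.47, -0.59 to -0.35), with -0.44 in Foxp2/Meis2 nuclei and 0.05 in Foxp2/Meis2-low nuclei. Cckbr, the main brain receptor for Cck, had 9.93 and 17.1 CPM (-0.79, -1.29 to -0.31), and Htr2c 340 and 284 CPM (0.26, 0.17 to 0.35).

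Of 29 semaphorins, plexins and neuropilins 17 were higher in KO, against 52.3% of all genes, with a median of 0.08 against 0.02 over all genes. In other GABA nuclei 24 of 30 were higher, with a median of 0.24, against 60.7% and 0.08 over all genes there. Sema3c and Sema3a, secreted semaphorins, had 83.2 and 134 CPM in KO, against 55.4 and 95.9 CPM in WT (0.59, 0.39 to 0.78, and 0.48, 0.33 to 0.63). Plxna4, a receptor of class 6 semaphorins, had 442 and 532 CPM (-0.27, -0.34 to -0.19), and Plxna2, another plexin of the same class, 228 and 249 CPM (-0.13, -0.24 to -0.03), with a ratio of 0.048 for Plxna2 after thinning.

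Of the 4 glial lists, oligodendrocyte and microglia markers were higher in KO in Adarb2-high nuclei. Oligodendrocyte markers were higher in KO in 12 of 14, with a median log2 ratio of 1.11, and microglia markers in 12 of 12, with 1.004. Over all genes 52.3% were higher. Astrocyte markers were higher in 7 of 13, with a median of 0.26, 1 interval wholly above 0 and summed levels of 468 CPM in KO and 467 CPM in WT. The 2 kinds of nuclei differed in direction. In Foxp2/Meis2 nuclei 10 of 13 were higher, with a median of 0.24 and 3 intervals wholly above 0. In Foxp2/Meis2-low nuclei 1 of 7 was higher (51.3% of all genes there), with a median of -0.72 and 3 intervals wholly below 0. Oligodendrocyte precursor markers were higher in 3 of 10 in Adarb2-high nuclei as a whole, with a median of -0.10 and no interval above 0. In other GABA nuclei all 4 lists were mostly higher in KO. There 14 of 14 oligodendrocyte, 14 of 14 microglia, 10 of 10 precursor and 12 of 14 astrocyte markers were higher, against 60.7% of all genes. The summed level of the 14 oligodendrocyte markers was 548 CPM in KO and 376 CPM in WT in Adarb2-high nuclei, and 20932 and 20389 CPM in oligodendrocyte nuclei. For the 14 microglia markers it was 112 and 62.6 CPM in Adarb2-high nuclei, with none at 0 in either library. The myelin genes Mbp, at 168 CPM in KO and 182 CPM in WT (-0.12, -0.24 to 0.01), and Mobp, at 30.2 and 30.2 CPM (0.00, -0.31 to 0.30), were near equal. Oligodendrocyte nuclei were 729 in the KO library and 355 in the WT library. Without the nuclei that held at least 5 UMIs of Mog, Mag and Mobp, the oligodendrocyte median was 0.74 and the microglia median 0.82, while the activity-induced median was -0.87 and the scaffold median -0.25. The part of glial transcripts in the neuronal ratios was not tested.

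**Figure D5:**
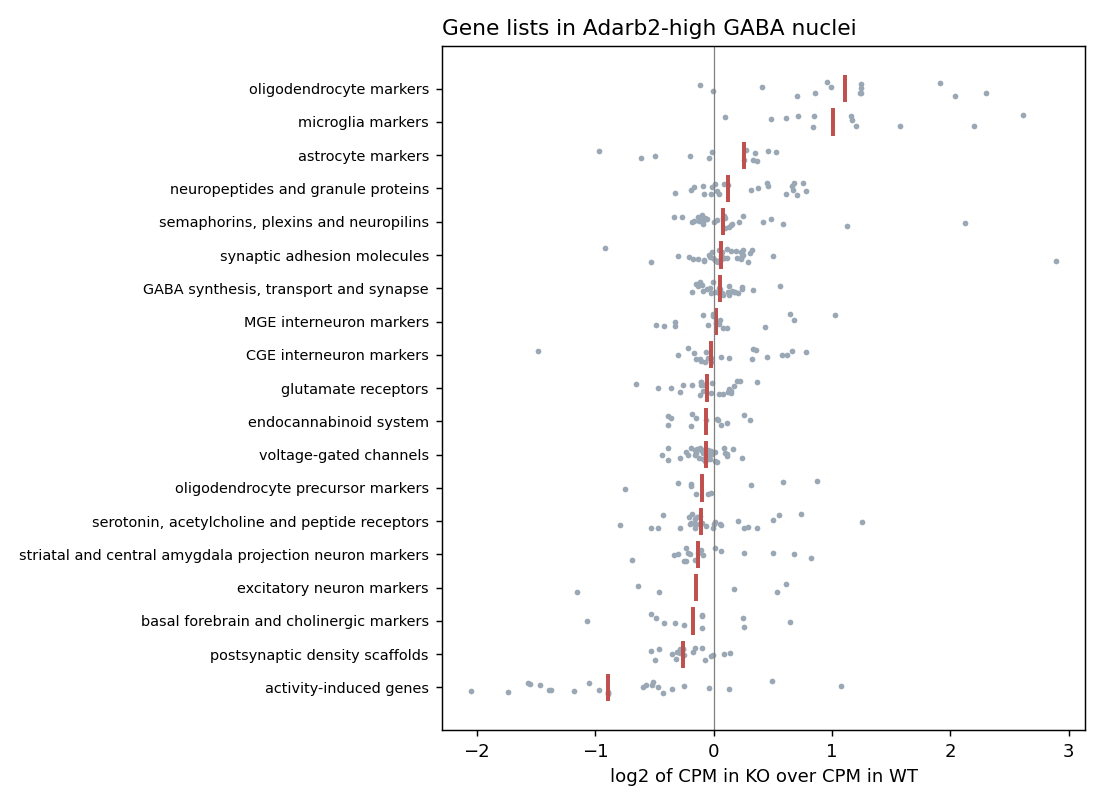
Log2 ratio of the KO to the WT level (CPM) in Adarb2-high GABA nuclei for the genes of 19 lists with at least 20 UMIs (grey points) and their median (red line), with lists ordered by median. Oligodendrocyte and microglia markers lie highest (1.11 and 1.004) and activity-induced genes lowest (-0.89), and the other medians lie between -0.26 and 0.26.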

How the data were processed

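Single-nucleus RNA was measured in 2 libraries, 1 per genotype. The authors deposited raw UMI counts per gene and barcode, made with Cell Ranger 6.0.0 against mm10 per the submitters' processing notes; of the annotation version, intronic reads, strand and the calling of nuclei the sources used here say nothing. The tables hold 32285 gene identifiers, of which 32158 matched a symbol. The members, the 19 gene lists and the split by Foxp2 and Meis2 were chosen with earlier results of these data known.

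Nuclei with at least 500 genes and at most 5% mitochondrially encoded UMIs were kept and chosen by the rule in the report. Doublets were kept; Scrublet (scanpy 1.11.5) called 222 KO and 422 WT nuclei, 18 and 37 of them Adarb2-high, and an alternative leaves these out. Counts were summed per library and population and expressed per 1000000 UMIs (CPM). Intervals are exact binomial or conditional binomial at 95% (scipy 1.17.1), for counting error only, and a count of 0 was set to 3 counts for a ratio. Genes needed 60 UMIs over both libraries for counts past 2-fold and 20 UMIs for lists. Genes were named by the 12 highest lower and 12 lowest upper bounds of the ratio, with up to 6 per list (3 with most UMIs, 3 farthest from 0), 6 leading genes per subset and, against other populations, the 10 highest and 6 lowest by the smaller library ratio; mitochondrial, Y-linked and unnamed genes and Xist were left out, and some genes this rule names are not reported here. Other genes named in the text were chosen from the lists after their values were seen. Thinning to 2000 UMIs, TMM scaling (edgeR 4.0.16) and median-of-ratios scaling, other limits and left-out nuclei were the alternatives. The ratio and its interval were tested on simulated Poisson counts, the model that the interval assumes. That run therefore says nothing on UMIs clustered in few nuclei, which the simulation lacks. Gene positions are from the GENCODE annotation of mm10 and promoters from RefSeq (GRCm38.p6).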

Additional observations from a re-analysis of the deposited data

Results flagged for a closer look

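Several genes had ratios of opposite sign in 2 populations, each with a counting interval away from 0. None of these differences was tested, and each rests on 1 library per genotype.

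Vip had a log2 ratio of KO over WT of -4.20 in Foxp2/Meis2 nuclei (2 UMIs in KO, 64 in WT, 53 of them in 3 WT nuclei) and 0.74 in Foxp2/Meis2-low nuclei. Slc1a3, an astrocyte glutamate transporter, stood at 0.98 in Foxp2/Meis2 nuclei and -0.91 in Foxp2/Meis2-low nuclei. Magi2, a synaptic scaffold, stood at 0.17 and -0.070 in the same order, and Dlgap1, a partner of PSD-95, at -0.21 and 0.067.

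Between Adarb2-high nuclei and other GABA nuclei, Dlgap1 stood at -0.075 and 0.16, and Sema6d at -0.10 and 0.14. Tacr3, the neurokinin B receptor, stood at -0.53 and 0.27, and Vcan, a matrix proteoglycan of oligodendrocyte precursors, at -0.75 and 0.24.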

How the results depend on the processing

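No paired analysis was possible because each genotype has 1 library. TMM scaling shifted ratios by -0.04 and median-of-ratios scaling by -0.03.
With an Adarb2 minimum of 5, Adarb2-high nuclei were 9.26% of kept and 19.8% of GABA nuclei in KO and 11.6% and 20.9% in WT, with a Foxp2/Meis2 share of 65.9% in KO and 74.0% in WT, Lamp5 at 8.90% in KO, Lhx8 at 4.94% in WT and an MGE marker median of 0.12. With a minimum of 12 they were 4.92% and 10.5% in KO and 5.87% and 10.5% in WT, with a Foxp2/Meis2 share of 50% and 56.2%, Lhx8 at 11.25% and 9.32%, Lamp5 at 3.48% in WT and a glutamate receptor median of -0.12. With no Nxph1 UMI allowed they were 5.34% and 11.4% in KO and 6.43% and 11.5% in WT. With 1000 genes required, KO nuclei were 7.39% of kept. Thinned, with a minimum of 3 Adarb2 UMIs, they were 7.48% of kept and 19.2% of GABA nuclei in KO and 19.3% of GABA nuclei in WT.
At 1 UMI the subset shares were Cck 23.0% and 17.6%, Lamp5 20.1% and 21.5%, Lhx8 13.6% and 13.9% in KO and WT, and Vip 4.54% in WT. At 3 UMIs they were Cck 2.36% and 2.49%, Lamp5 1.99% and 1.36%, and Lhx8 4.17% and 2.83%, so the order of KO and WT turned for Lamp5 and Lhx8 at 1 UMI and for Cck at 3. Thinned, at 1 UMI, they were Cck 9.45% and 6.25%, Lhx8 4.18% and 3.07%, and Lamp5 8.98% in WT.
Genes past 2-fold were 267 higher and 217 lower at a minimum of 20 UMIs, 13 and 18 at 200, and 32 higher after thinning. After thinning, medians were 0.14 for MGE, 0.78 for oligodendrocyte precursor and 0.58 for microglia markers and 0.085 for receptors. The MGE median was -0.13 with the same weights, an alternative chosen after seeing the data, and the basal forebrain median -0.53 without the Lhx8 subset.
Signs turned for Kcnc2 (-0.00457), Slc1a3 (-0.00474) and Plxna2 (0.048) after thinning, Slc1a3 at a minimum of 12 (-0.31), Dlgap1 at 5 (0.00858), and Foxp2 (0.051) and Kcnd2 (0.069) with the same weights. Of 209 list medians under alternatives 201 stayed within the interval of the reported value, and of 1071 single-gene ratios 932. The causes were not tested, and 1 library per genotype limits every ratio.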

Other observations

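Y-linked transcripts were found in Adarb2-high nuclei of both libraries: Uty had 690 UMIs in KO and 973 in WT, Kdm5d 318 and 548, Ddx3y 172 and 236, and Eif2s3y 960 and 972. Xist, which is transcribed from the inactive X chromosome, had 0 and 1 UMI.

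Penk, the enkephalin precursor gene, stood at 374 CPM in KO and 338 CPM in WT in Foxp2/Meis2 nuclei and at 176 and 191 CPM in Foxp2/Meis2-low nuclei. After thinning, a Penk UMI was found in 39.3% of Adarb2-high nuclei in KO and 42.5% in WT, against 58.5% and 59.1% of oligodendrocyte nuclei, so these shares are at background. Kit, a receptor tyrosine kinase gene, stood at 41.5 CPM in KO and 47.8 CPM in WT in Foxp2/Meis2-low nuclei, against 6.31 and 7.04 CPM in Foxp2/Meis2 nuclei and 124 and 168 CPM in MGE-type nuclei.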
